A study of Sus scrofa with 6 samples.

Results

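The SLITRK family comprises 6 genes, SLITRK1 to SLITRK6, which were found by symbol among the 30477 genes counted in single cells of pig midbrain-like organoids (pMLOs). All 6 were present once and all 6 passed the filter on low counts in every comparison of the main tests, so no member is left out of those. The organoids were grown from an embryonic stem cell line made from in vitro fertilised pig embryos (IVF_1_ pESC_FIW) and were collected on day 11 (D11), day 28 (D28) and day 45 (D45), with 2 libraries per day, A and B. In every group, embryoid bodies received SB431542, Noggin, SHH-C24II and CHIR99021, then FGF8, and later FGF8 with BDNF and ascorbic acid. By the study's protocol the D28 and D45 organoids had also been embedded in Matrigel and grown with BDNF, GDNF, ascorbic acid, db-cAMP and DAPT, steps that began after D11. D11 thus differed from the later days in matrix and medium as well as in age, which cannot be told apart, and no untreated organoids were analysed here. The study calls the libraries of a day biological duplicates without saying which organoids were pooled, and all come from a single cell line, so the p-values measure the spread between these libraries.

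SLITRK proteins are transmembrane adhesion molecules of neurons, with leucine-rich repeats outside the membrane that resemble those of the SLIT guidance proteins, and a cytoplasmic end that in several members resembles that of the neurotrophin (TRK) receptors. At synapses they sit mostly on the receiving side and bind receptor phosphatases of the LAR group (PTPRD, PTPRS, PTPRF) on the sending axon, which starts the assembly of release sites there. SLITRK3 is known for inhibitory synapses through PTPRD, SLITRK1 and SLITRK2 mainly for excitatory synapses, SLITRK5 for corticostriatal circuits and for work with the BDNF receptor NTRK2, and SLITRK6 for the innervation of the inner ear. LMX1A, which defines one of the cell gates below, is a transcription factor of the midbrain floor plate, the source of dopaminergic neurons, and STMN2, which defines the other, is a microtubule regulator of young and mature neurons.

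On Sscrofa11.1, 3 members were neighbours on chromosome 11, namely SLITRK1 (ENSSSCG00000009485, 54950669 to 54955768, minus strand), SLITRK6 (ENSSSCG00000009486, 56508713 to 56522270, minus strand) and SLITRK5 (ENSSSCG00000009488, 57792576 to 57800852, plus strand). The gaps between them were 1.55 and 1.27 Mb, with 0 other RefSeq protein-coding genes inside either gap. SLITRK4 (ENSSSCG00000022091, 117145647 to 117157275, minus strand) and SLITRK2 (ENSSSCG00000012724, 118826531 to 118837134, plus strand) lay 1.67 Mb apart on chromosome X with 2 protein-coding genes between them, and SLITRK3 (ENSSSCG00000011736, 104443610 to 104461850, minus strand) stood alone on chromosome 13. The longest RefSeq coding sequences encoded 695 residues for SLITRK1, 849 for SLITRK2, 978 for SLITRK3, 838 for SLITRK4, 963 for SLITRK5 and 870 for SLITRK6. In 5 of the 6 the coding sequence lay in 1 exon, and in SLITRK6 it was divided over 3.

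The 250 bases before the annotated start are shown for SLITRK2 and SLITRK6, the pair of members that were higher in LMX1A-positive cells on D11, because the homeodomain core TAATTA, the kind of site that LMX1A-class factors bind, was searched in these windows. Capitals mark TAATTA, and both strands were covered because the word reads the same on each.
SLITRK2 (chrX:118826281-118826530, plus strand): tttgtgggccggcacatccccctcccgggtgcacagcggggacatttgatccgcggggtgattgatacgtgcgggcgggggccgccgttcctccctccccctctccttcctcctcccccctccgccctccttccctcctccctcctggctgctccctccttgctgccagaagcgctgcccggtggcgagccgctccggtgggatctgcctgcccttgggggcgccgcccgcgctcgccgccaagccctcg
SLITRK6 (chr11:56522271-56522520, minus strand): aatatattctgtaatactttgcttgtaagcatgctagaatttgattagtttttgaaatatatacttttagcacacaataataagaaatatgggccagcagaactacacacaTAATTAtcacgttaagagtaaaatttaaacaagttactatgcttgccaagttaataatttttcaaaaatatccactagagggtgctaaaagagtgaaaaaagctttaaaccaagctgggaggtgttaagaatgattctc
Of the 6 members only SLITRK6 held the word, at 1 place, against 3.73% of the 19531 windows of the same length before RefSeq protein-coding genes. The E-box CAGCTG, read by neurogenic factors, was in 0 of the 6 windows against 13.6% of all. The SLITRK2 window was 72.8% G and C, the SLITRK6 window 30% and the SLITRK3 window 29.2%, where the median of all windows was 57.6%. The sequences are from the RefSeq copy of Sscrofa11.1, and the starts are those of its gene models, which were not checked against reads here.

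After the filters 102940 of 104820 barcodes were kept, 13870 to 21553 per library, with 106805311 to 180034791 unique molecular identifiers (UMIs, each marking a captured mRNA molecule) per library. The median cell held from 10757 UMIs in D11 library A down to 2300.5 in D45 library A, so shares of cells with a UMI are lower on D45 for the same level, and levels are given as UMIs per 1000000 UMIs of the same cells (CPM). The method counts transcript ends, so CPM of different genes are compared without a correction for length. Any pair of libraries shared 54 to 111 barcodes (0.389 to 0.637% of the smaller).

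In whole organoids, SLITRK2 had the highest mean level of the members on each day, although SLITRK6 was slightly above it in D45 library B. It fell after D11, while the other 5 were higher on D45 than on D11. Of the 6 members, 5 rose and 1 fell between D11 and D45, where 17.3% of the 22192 genes tested rose and 17.4% fell at the same threshold (edgeR, adjusted p under 0.05). Between D11 and D28, 3 rose and 1 fell, against 12.5% and 10.6% of all genes. Between D28 and D45 no member passed edgeR's test, against 9.40% of all genes, although 3 (SLITRK4, SLITRK5 and SLITRK6) had an unadjusted p under 0.05 and DESeq2 called 3. The share of all genes that DESeq2 called is not given here. A change in whole organoids can come from more cells of a type or from more RNA per cell, and these sums do not tell the 2 apart.

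**Figure D1:**
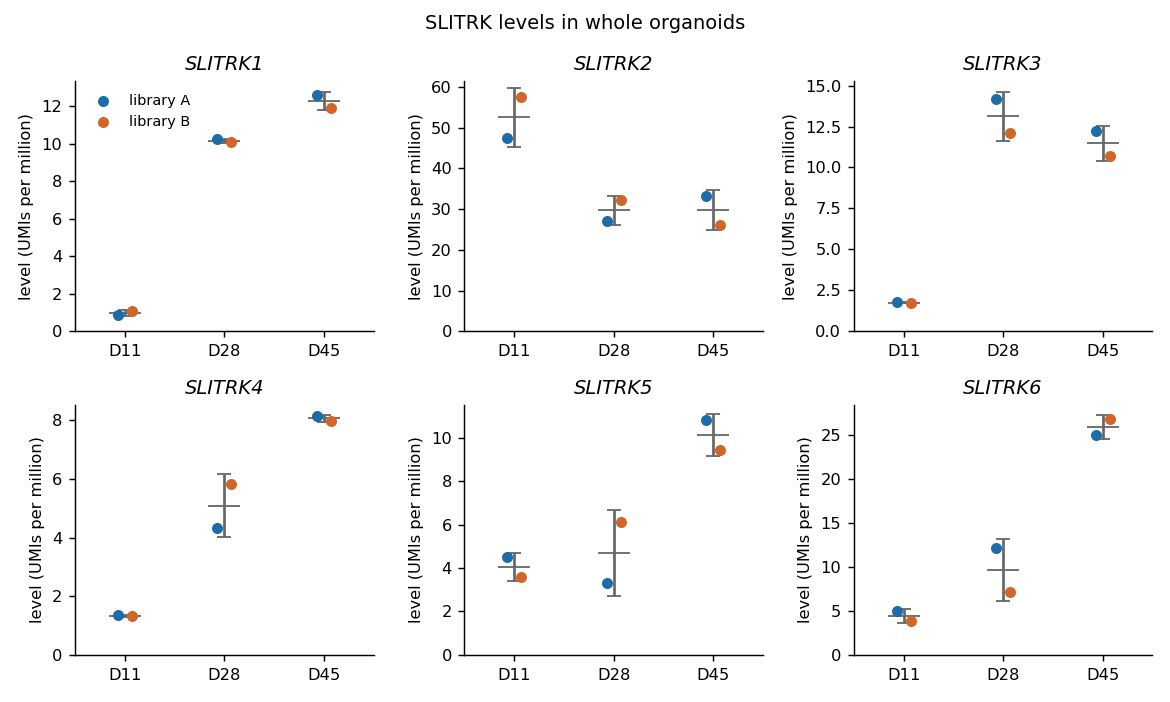
SLITRK levels in whole organoids, in CPM, by day. Points are the libraries A and B, bars the mean and SD (n = 2). SLITRK2 falls from a mean of 52.5 on D11 to 29.7 on D28 and D45, and the D45 libraries of the other 5 members lie above their D11 libraries.

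SLITRK1, SLITRK3 and SLITRK4 shared a course, near the floor on D11 and higher from D28. SLITRK1 was at 0.878 and 1.08 CPM in the D11 libraries (A and B), 10.2 and 10.1 on D28, then 12.6 and 11.9 on D45. The ratio of its mean CPM was 12.5 for D45 over D11, the fold change fitted by edgeR with TMM scaling was 3.23 on the log2 scale (SE 0.24, adjusted p = 3.37e-04), and most of that step lay between D11 and D28 (3.12, SE 0.24, adjusted p = 8.33e-04). SLITRK3 was at 1.77 and 1.73 CPM on D11, 14.2 and 12.1 on D28, then 12.2 and 10.7 on D45. The D45 libraries lay above both D11 libraries and overlapped those of D28 (D45 against D11 2.30, SE 0.24, adjusted p = 8.14e-04). SLITRK4 was at 1.36 and 1.32 CPM on D11, 4.33 and 5.84 on D28, then 8.16 and 7.998 on D45, with no overlap between any 2 days. It was higher by 2.18 on D45 than on D11 on the log2 scale (SE 0.23, adjusted p = 8.30e-04). The D28 call of SLITRK4 was lost when D11 library A or D11 library B was left out (adjusted p = 0.0605 and 0.0557).

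SLITRK2 ran the other way. It was at 47.4 and 57.6 CPM on D11, 27.1 and 32.2 on D28, then 33.2 and 26.2 on D45. The D11 libraries were the highest, and those of D28 and D45 overlapped. The fall was 1.24 on the log2 scale from D11 to D45 (SE 0.18, adjusted p = 0.00296) and 1.09 from D11 to D28 (SE 0.18, adjusted p = 0.00763), and without D11 library B the D28 difference was -0.88 with adjusted p = 0.101.

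In the main edgeR test SLITRK5 and SLITRK6 were called on D45 against D11 and not between neighbouring days. With a library left out, the log2 difference on D45 against D28 ran from 0.74 to 1.34 for SLITRK5 and from 0.83 to 1.87 for SLITRK6. SLITRK5 was at 4.51 and 3.58 CPM on D11, 3.31 and 6.11 on D28, then 10.8 and 9.42 on D45. Its D11 and D28 libraries overlapped and both D45 libraries lay above them (D45 against D11 0.91, SE 0.28, adjusted p = 0.0399). That call was lost when D11 library A, D11 library B, D45 library A or D45 library B was left out (adjusted p from 0.126 to 0.223). SLITRK6 was at 4.97 and 3.83 CPM on D11, 12.1 and 7.18 on D28, then 24.9 and 26.8 on D45, without overlap between days (D45 against D11 2.15, SE 0.34, adjusted p = 0.00394). Its step from D11 to D28 was 0.91 on the log2 scale (adjusted p = 0.0916 by edgeR and 0.0467 by DESeq2), and it was 1.32 and called without D28 library B (adjusted p = 7.00e-04) but 0.34 without D28 library A (adjusted p = 0.224).

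The cells were then divided into a gate with at least 1 LMX1A UMI and at most 1 STMN2 UMI, called LMX1A cells here, and a gate with at least 3 STMN2 UMIs, called STMN2 cells. The LMX1A cells numbered 3157 and 4638 on D11, 1351 and 1040 on D28, then 418 and 903 on D45, and the STMN2 cells 1560 and 2147, 6024 and 5975, and 6802 and 5912. The name progenitor held for the first gate on D11 but not on D45. On D11, 82.7 to 84.7% of LMX1A cells lay in floor plate-like clusters, on D28 41.6 to 54.8%, and on D45 1.88 to 3.83%, when 37.8 to 55.9% were in astrocyte-like and 18.8 to 26.6% in neuronal clusters. Summed CPM of the 8 floor plate markers went from 2370 to 2712 on D11 to 572 to 703 on D45, and that of the 7 measured astrocyte markers from 54.0 to 58.1 up to 692 to 737. Of the STMN2 cells, 77.5 to 85.1% were in neuronal clusters on D11 and 67.8 to 68.5% on D45. The GABAergic neuron-like cluster held 0.326 to 0.641% of STMN2 cells on D11, 0.647 to 17.5% on D28 and 23.8 to 27.0% on D45. The 7 GABAergic markers summed in STMN2 cells to 9.13 to 10.9 CPM on D11, 14.5 to 205 on D28 and 311 to 387 on D45. In STMN2 cells the summed neuron markers went from 13195 to 13488 CPM on D11 to 3915 to 4747 on D45, the astrocyte markers from 51.8 to 60.3 up to 318 to 390, and the oligodendrocyte lineage markers from 6.68 to 7.33 up to 446 to 541. In LMX1A cells the last went from 17.4 to 18.7 up to 388 to 731 CPM. Fibroblast markers, 6 of 6 of which were measured and none of which was at 0 in any gate and library, summed to 25.1 to 30.2 CPM in LMX1A cells on D11, 779.6 to 939.7 on D28 and 1091 to 1954 on D45. In STMN2 cells the sums were 4.85 to 8.38, then 156 to 567 and 338 to 1026 CPM, so that D28 and D45 overlapped. The part of these other cell types in the results below was not tested.

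On D11 and D28 all 6 members differed between LMX1A and STMN2 cells of the same libraries, where 49.9% and 46.5% of all 19494 genes did. On D45, 4 of the 6 differed, against 36.3% of all genes. SLITRK1, SLITRK3 and SLITRK4 were lower in LMX1A cells in 6 of 6 libraries, SLITRK2 was higher in 6 of 6, SLITRK5 was lower in 5 of 6, and SLITRK6 was higher in 3 and lower in 3. Averaged over days, 2 members were higher and 4 lower, against 29.6% and 27.8% of all genes. SLITRK6, one of those higher (0.52), lost this call with at least 2 LMX1A UMIs (0.36, adjusted p = 0.0651) or with SOX3, SOX9 or HES5 in LMX1A cells (0.28, adjusted p = 0.0997). SLITRK5, one of those lower (-0.80), lost it in thinned cells (-0.45, adjusted p = 0.128). Thinned cells are those with at least 2000 UMIs, cut at random to 2000, with all other cells left out.

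**Figure D2:**
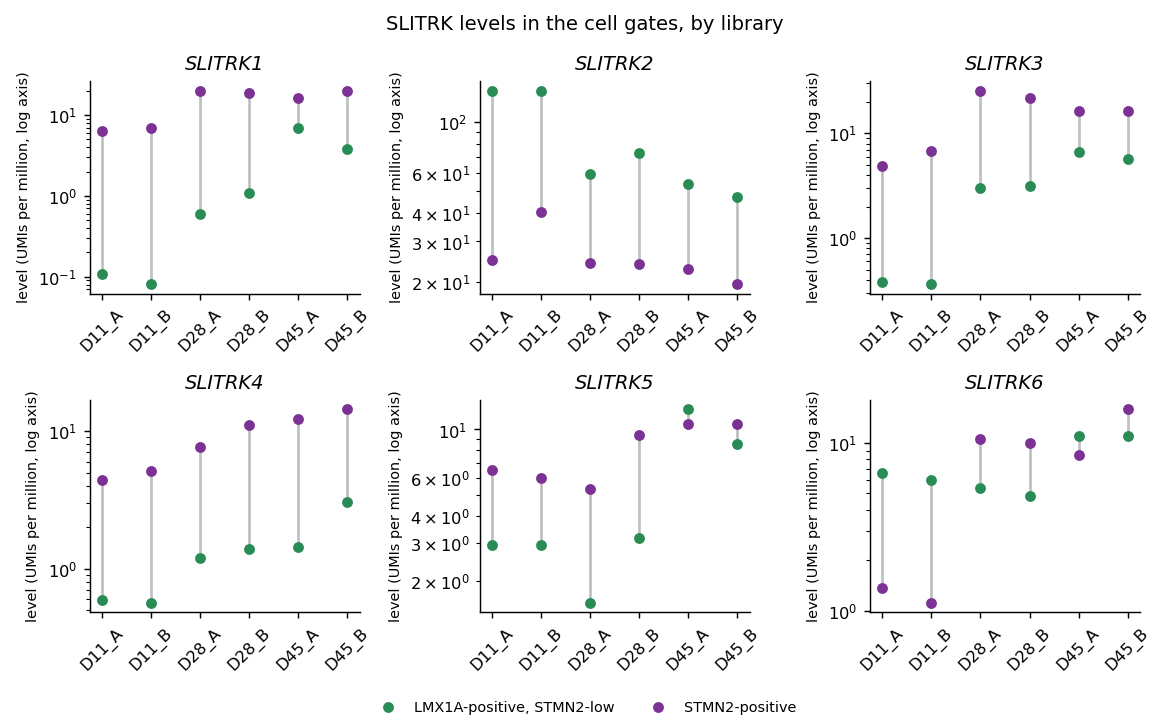
SLITRK levels in the cell gates by library, in CPM on a log axis. Green points are LMX1A-positive, STMN2-low cells, purple points STMN2-positive cells, and grey lines join the gates of a library. SLITRK2 is the member with the green point on top in all 6 libraries, and for SLITRK6 the order turns between D11 and D28.

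SLITRK1 had the widest gap on D11 and D28. LMX1A cells held 0.108 and 0.0811 CPM on D11, which rests on 4 UMIs in each library, 0.596 and 1.08 on D28, then 6.92 and 3.80 on D45. STMN2 cells held 6.38 and 6.81 CPM on D11, 19.7 and 18.9 on D28, then 16.02 and 19.98 on D45. The log2 difference, LMX1A over STMN2 cells, was -5.97 on D11 (SE 0.39, adjusted p = 3.43e-06), -4.40 on D28 (SE 0.31, adjusted p = 9.15e-06) and -1.79 on D45 (SE 0.28, adjusted p = 0.00111).

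SLITRK3, the member tied to inhibitory synapses, stood at 0.380 and 0.365 CPM in LMX1A cells on D11, 3.04 and 3.15 on D28, then 6.64 and 5.65 on D45. In STMN2 cells it stood at 4.90 and 6.77, then 25.6 and 21.7, then 16.2 and 16.5 CPM. Its log2 difference between the gates was -3.84 on D11 and -2.78 on D28, and on D45 it was -1.33 (SE 0.18, adjusted p = 5.48e-04). In thinned cells the D45 difference was -0.83 and lost its call (adjusted p = 0.114). Within matching clusters, a setting described under SLITRK6 below, it was -2.59 and called (adjusted p = 0.00195). SLITRK4 was lower in LMX1A cells on each day. Its levels were 0.597 and 0.568, 1.19 and 1.39, and 1.44 and 3.04 CPM in LMX1A cells, against 4.44 and 5.17, 7.61 and 11.0, and 12.2 and 14.4 CPM in STMN2 cells. The log2 differences were -2.91, -2.68 and -2.35 on the 3 days (SE 0.23, 0.23 and 0.24), with the largest adjusted p, 1.40e-04, on D45, and without D45 library B the D45 difference was -3.07.

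SLITRK2 was enriched in LMX1A cells in every library. They held 137 CPM in both D11 libraries, 59.2 and 73.2 on D28, then 53.4 and 47.1 on D45. STMN2 cells held 24.8 and 40.2, 24.1 and 24.0, and 22.8 and 19.5 CPM. The lowest LMX1A library lay above the highest STMN2 library. The log2 difference was 2.24 on D11 (SE 0.15, adjusted p = 4.33e-06), 1.60 on D28 (SE 0.15, adjusted p = 4.24e-05) and 1.36 on D45 (SE 0.17, adjusted p = 3.26e-04). On D11 a SLITRK2 UMI was found in 44.1% and 40.7% of LMX1A cells and in 18.7% and 25.7% of STMN2 cells, and in 19.8% and 18.6% against 4.39% and 6.90% when cells were thinned to 2000 UMIs. Fibroblast-like cells, which serve as a population at a low level, had a SLITRK2 UMI in 1.90 to 5.69% of cells at a median of 11344 to 15026 UMIs per cell.

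SLITRK5 had the smallest difference between the gates on D11 and SLITRK6 on D28, and neither passed on D45. SLITRK5 was at 2.93 and 2.94 CPM in LMX1A cells on D11, 1.59 and 3.15 on D28, then 12.4 and 8.59 on D45, against 6.48 and 5.97, 5.31 and 9.48, and 10.6 in both D45 libraries of STMN2 cells. The STMN2 cells were higher on D11 (log2 difference -0.94, SE 0.17, adjusted p = 0.00173) and D28 (-1.50, SE 0.20, adjusted p = 3.01e-04), and on D45 the libraries overlapped and the test was not passed (adjusted p = 0.974). With cells thinned to 2000 UMIs, the D11 difference was -0.77 (adjusted p = 0.118) and the D28 difference -0.44 (adjusted p = 0.456), and neither was called.

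SLITRK6 changed sides. LMX1A cells held 6.62 and 6.04 CPM on D11, 5.43 and 4.85 on D28, then 11.0 in both D45 libraries. STMN2 cells held 1.38 and 1.12 CPM on D11, 10.5 and 9.98 on D28, then 8.53 and 15.9 on D45. The log2 difference was 2.48 on D11 (SE 0.24, adjusted p = 3.24e-05) and -0.85 on D28 (SE 0.20, adjusted p = 0.00781), and on D45 the libraries overlapped (adjusted p = 0.850). The D28 difference was -0.04 (adjusted p = 0.917) when STMN2 cells with an LMX1A UMI were left out, -0.99 (adjusted p = 0.0646) in thinned cells and -0.84 (adjusted p = 0.0741) without the library as a term. The D45 difference was called lower in LMX1A cells with at least 2 LMX1A UMIs (-1.02, adjusted p = 0.0165) and in those with a SOX3, SOX9 or HES5 UMI (-1.61, adjusted p = 4.37e-04), and turned positive without a call under other settings. The fibroblast marker sums given above were higher on D28 and D45 than on D11 in both gates. Restricting STMN2 cells to neuronal clusters and removing fibroblast-, astrocyte-, oligodendrocyte lineage- and ciliated-like and neuronal clusters from LMX1A cells, a setting chosen after seeing the data, gave 3.91 on D11 and -1.43 on D28, both called. Unnamed clusters were kept among the LMX1A cells. On D45 they held 97 and 131 of these cells, against 16 and 17 in floor plate-like clusters. The unnamed clusters include that led by NDST4, OLFML2A and NPY, with SLITRK6 at 109 CPM over all libraries.

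**Figure D3:**
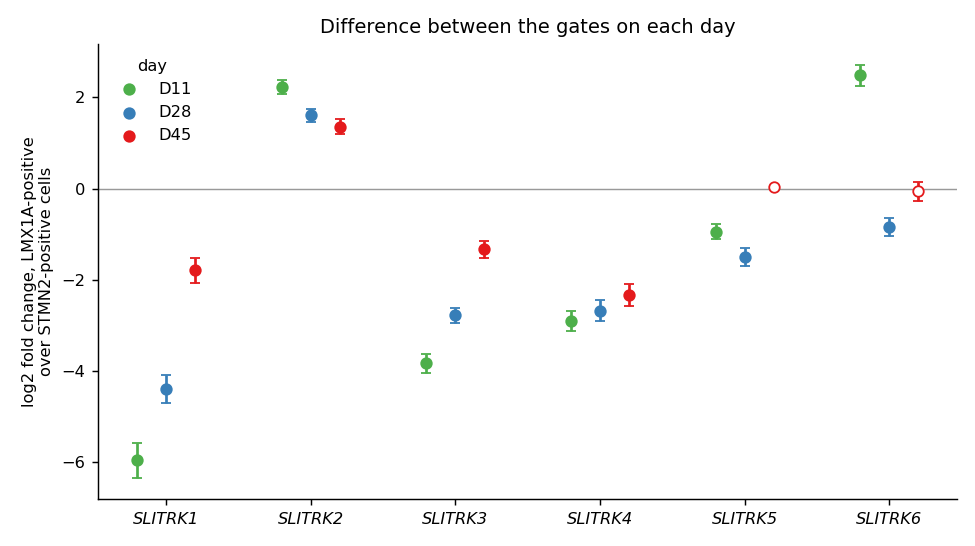
Log2 fold change between LMX1A-positive and STMN2-positive cells on each day, with standard errors from edgeR. Filled points passed the adjusted p of 0.05, open points did not. No error bar is drawn for SLITRK5 on D45, where the fitted statistic gives no usable standard error. The SLITRK1 and SLITRK3 points climb toward 0 from D11 to D45, those of SLITRK4 stay between -2.91 and -2.35, and SLITRK6 starts at 2.48.

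Whether these gaps changed between D11 and D45 was tested as an interaction, in which 28.2% of all genes passed and 5 of the 6 members did. The gap of SLITRK1 (4.18, SE 0.56, adjusted p = 8.75e-04) and SLITRK3 (2.504, SE 0.30, adjusted p = 5.04e-04) moved toward LMX1A cells, and so did that of SLITRK5 (0.99, SE 0.25, adjusted p = 0.0190). The gap of SLITRK2 (-0.88, SE 0.22, adjusted p = 0.0175) and SLITRK6 (-2.54, SE 0.32, adjusted p = 6.37e-04) moved toward STMN2 cells, and SLITRK4 did not pass (adjusted p = 0.280). SLITRK1 and SLITRK6 passed under all 19 alternatives. SLITRK2 and SLITRK5 lost their call under 7 each, among them leaving out D11 library A (adjusted p = 0.110 and 0.133) or D45 library A (adjusted p = 0.0739 and 0.0877) and, for SLITRK5, D11 library B (adjusted p = 0.0815). In the gates restricted to matching clusters the interaction was 1.52 for SLITRK3 (adjusted p = 0.222), -0.25 for SLITRK2 (adjusted p = 0.588) and 0.37 for SLITRK5 (adjusted p = 0.697). That of SLITRK2 was -0.28 (adjusted p = 0.408) with STMN2 cells without SOX3, SOX9 or HES5.

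Within LMX1A cells, 4 members rose and 1 fell from D11 to D45, where 18.9% of 16304 genes rose and 15.4% fell. As the cells of this gate came from other clusters on D45 than on D11, levels per cell and the make-up of the gate cannot be told apart in these values. SLITRK1 was higher on D45 by 5.43 on the log2 scale (SE 0.53, adjusted p = 3.64e-04), SLITRK3 by 3.75 (SE 0.34, adjusted p = 2.84e-04), SLITRK4 by 1.80 (SE 0.44, adjusted p = 0.0179) and SLITRK5 by 1.55 (SE 0.33, adjusted p = 0.00996), while SLITRK2 fell by 1.71 (SE 0.16, adjusted p = 3.01e-04). The SLITRK4 call was lost without D11 library A (adjusted p = 0.150), D11 library B (0.163) or D45 library B (0.386), and the SLITRK5 call without D11 library A (0.0907), D11 library B (0.0846) or D45 library A (0.0781). The SLITRK4 difference was 0.90 without D45 library B, and in thinned cells the SLITRK5 difference was 1.07 (adjusted p = 0.140). In matching clusters SLITRK1 (5.33, adjusted p = 0.00195), SLITRK3 (2.72, adjusted p = 0.0295) and SLITRK2 (-1.92, adjusted p = 5.09e-04) were still called. Under that setting SLITRK4 (2.07, adjusted p = 0.0614) and SLITRK5 (0.78, adjusted p = 0.368) were not. From D11 to D28, 2 rose (SLITRK1 and SLITRK3) and SLITRK2 fell, against 14.1% and 10.7% of all genes, and without D11 library A or B SLITRK1 was not called (adjusted p = 0.0794 and 0.103). From D28 to D45, SLITRK1, SLITRK5 and SLITRK6 rose and SLITRK2 fell, against 12.6% and 11.7% of all genes. The SLITRK6 difference, 0.96, turned to -0.69 (adjusted p = 0.188) in LMX1A cells with a SOX3, SOX9 or HES5 UMI and was 0.04 (adjusted p = 0.963) with at least 2 LMX1A UMIs. Leaving out D45 library A left 0 of these 4 calls and leaving out D45 library B left 1, that of SLITRK1, and without D11 library A or D11 library B those of SLITRK1 and SLITRK5 were kept.

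Within STMN2 cells 3 members passed on D28 against D11, and 5 on D45 against D11. From D11 to D28, 3 rose, SLITRK1 by 1.35 on the log2 scale (SE 0.23, adjusted p = 0.00987), SLITRK3 by 1.83 (SE 0.26, adjusted p = 0.00501) and SLITRK6 by 2.85 (SE 0.38, adjusted p = 0.00406), and 0 fell, against 6.58% and 5.90% of 20162 genes. SLITRK2, not called here (-0.63, adjusted p = 0.154), was called lower in STMN2 cells without LMX1A (-1.02, adjusted p = 0.0492), without SOX3, SOX9 or HES5 (-1.15, adjusted p = 0.0290) or in neuronal clusters (-1.05, adjusted p = 0.0398). Leaving out D11 library A or D11 library B left 1 call, that of SLITRK6 in the first case (SLITRK1 adjusted p = 0.134, SLITRK3 0.0813) and of SLITRK3 in the second (SLITRK1 0.101, SLITRK6 0.0567). From D28 to D45 no member passed edgeR's test or DESeq2's, against 2.84% of all genes, and 1 had an unadjusted p under 0.05. From D11 to D45, 4 rose and SLITRK2 fell (-0.95, SE 0.26, adjusted p = 0.0361), against 11.4% and 12.3% of all genes. The SLITRK2 call was lost in STMN2 cells without LMX1A (-0.68, adjusted p = 0.102), and the difference was -0.49 without D11 library B. In neuronal clusters it was -1.79 and called (adjusted p = 0.0033). Only 1 to 2 of these calls were kept when D11 library A, D11 library B, D45 library A or D45 library B was left out. SLITRK6 was the member with the largest rise, 2.97 (SE 0.38, adjusted p = 0.00208), and within neuronal clusters alone it was 3.67 (adjusted p = 0.00322).

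STMN2 cells with and without an LMX1A UMI were compared next, since LMX1A stays on in dopaminergic neurons. The cells with LMX1A were not dopaminergic neurons alone. The dopaminergic neuron-like cluster held 0% of them on D11, 17.8 to 21.9% on D28 and 9.79 to 24.9% on D45. Neuron-like clusters held 44.1 to 59.8%, 52.6 to 65.0% and 48.7 to 64.9% on these days, and mitotic-like clusters 12.7 to 23.7% on D11. By edgeR 0 of the 6 members passed, against 1.44% of 18595 genes, with 2 at an unadjusted p under 0.05 and 2 called by DESeq2. These were SLITRK2 and SLITRK6, whose levels were higher in the cells with LMX1A in 6 of 6 libraries each. On D11, 24.5 to 27.1% of the cells with LMX1A lay in floor plate-like clusters, against 3.36 to 5.29% of those without it, and the 8 floor plate markers summed to 1445 to 1446 CPM against 407 to 435. The part of these cells in the difference was not tested. For SLITRK2 the levels with LMX1A were 75.1 and 93.4 CPM on D11, 33.1 and 45.8 on D28, then 28.4 and 21.0 on D45, against 20.4 and 32.9, 13.9 and 16.8, and 22.1 and 19.1 CPM without it. The log2 difference was 1.04 (SE 0.22, adjusted p = 0.0541), and the ratio was lowest in the D45 libraries, 1.28 and 1.10. For SLITRK6 the levels with LMX1A were 4.42 and 2.97, 12.2 and 28.0, and 9.57 and 25.8 CPM, against 1.11 and 0.867, 8.56 and 3.97, and 8.39 and 12.9 CPM without it (1.20, SE 0.35, adjusted p = 0.156). Among cells of neuronal clusters, a restriction chosen after seeing the data, both passed (SLITRK2 1.03, adjusted p = 7.98e-04, and SLITRK6 2.46, adjusted p = 5.93e-04).

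The levels were also described over 29 clusters of all cells, 23 of which were named from marker genes. Cells of a cluster were grouped by their expression, so these levels are a description with no test. SLITRK1 stood high in neuronal and in oligodendrocyte lineage-like cells, which held 21.5 to 23.8 CPM on D45. It was at 26.5 to 36.9 CPM in the GABAergic neuron-like cluster (3 libraries with at least 50 cells) and at 18.6 to 35.2 in the dopaminergic neuron-like cluster (4 libraries), ranges that overlap, and at 0 to 1.01 CPM in fibroblast-like cells. A SLITRK1 UMI was found in 17.98 to 23.0% of GABAergic neuron-like cells and in at most 0.864% of fibroblast-like cells, whose median depth was higher. In D28 library B, 0 of 95 fibroblast-like cells had one, which allows up to 3.16% of such cells to hold a UMI at this depth, and sets no limit on cells that express the gene.

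**Figure D4:**
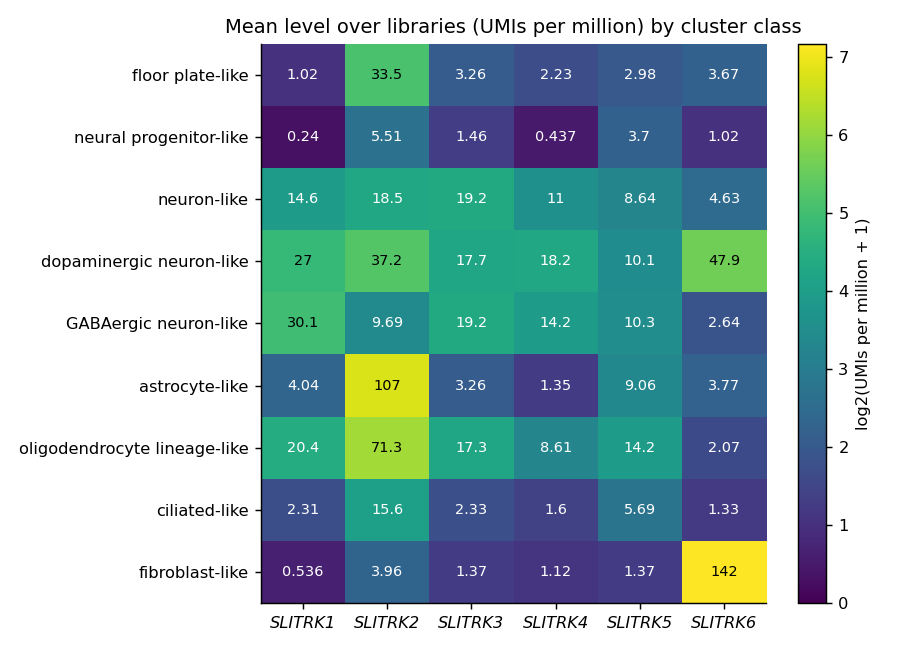
Mean level of each SLITRK gene, in CPM, over the libraries with at least 50 cells of a cluster class, with colour on a log2 scale with 1 added. Mitotic-like (8942 cells) and unnamed clusters (24269 of 102940 cells) are not drawn, and the unnamed held SLITRK2 at 98.6 on D28. The means pool days, and the SLITRK2 level depended on the day. Astrocyte-like cells held 164 on D28 (414 cells) and 50.2 on D45 (8719 cells), and oligodendrocyte lineage-like cells 65.8 on D45. Floor plate-like cells held 85.9 on D11, 9.95 on D28 and 4.83 on D45. The highest means of SLITRK6 are in fibroblast-like (142) and dopaminergic neuron-like (47.9) cells, and those of SLITRK1, SLITRK3 and SLITRK4 in neuronal and oligodendrocyte lineage-like cells.

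SLITRK3 was highest in a neuron-like cluster with NRN1 among its leading genes, at 41.2, 31.7, 32.5 and 21.9 CPM in the A and B libraries of D28 and then of D45. SLITRK4 was highest in a neuron-like cluster led by TAC1, VGF and VSNL1, with 21.3, 20.03, 33.2 and 36.6 CPM in the same libraries. That cluster also had TH among its 10 leading genes. In the dopaminergic neuron-like cluster, led by TH, SLITRK3 was at 14.8 to 21.7 CPM and SLITRK4 at 6.97 to 31.9.

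Oligodendrocyte lineage-like clusters differed in their SLITRK levels. In the cluster led by OLIG1 and GPR17, genes of progenitors and newly committed cells, SLITRK3 was at 39.3 and 30.2 CPM in the D45 libraries, against 5.33 and 4.28 in the cluster led by MBP and CLDN11, genes of myelin. SLITRK4 was at 16.9 and 13.9 CPM against 2.38 and 1.90, and SLITRK2 at 106 and 80.0 against 34.2 and 32.0. SLITRK1 kept its level, with 22.6 and 20.4 CPM in the first and 24.9 and 23.0 in the second.

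The clusters that gave most SLITRK2 UMIs differed between days. On D11, 63.6% (Wilson 95% interval 62.5 to 64.7) and 64.2% (63.3 to 65.1) of its UMIs in the A and B libraries came from a floor plate-like cluster led by RSPO2 and with LMX1A and SLITRK2 itself among its top genes, which held 9.56% and 8.68% of cells. The levels there were 276 and 305 CPM, against 16.1 and 17.5 CPM in the largest floor plate-like cluster of that day. On D28, 58.9% (57.0 to 60.8) and 31.1% (29.7 to 32.6) of its UMIs came from a cluster led by CNMD, ALDH1A1, DMRTA2 and RSPO2, which had too few markers to be named and held 7.18% and 3.18% of cells. On D45, astrocyte-like cells gave 48.4% (46.9 to 50.01) and 48.7% (47.0 to 50.4), and oligodendrocyte lineage-like cells 32.8% (31.3 to 34.3) and 29.1% (27.6 to 30.7). These shares are of UMIs in clusters with at least 50 cells of the library, and the intervals cover counting error only.

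On D45 most SLITRK6 UMIs came from fibroblast-like cells and from 1 small unnamed cluster. Fibroblast-like cells, marked by COL1A1, COL3A1 and LUM, held it at 38.6 and 80.1 CPM on D28, then 321 and 129 on D45. A further cluster, led by NDST4, OLFML2A and NPY and left unnamed, held 94.7 and 132 CPM on D45. Together the fibroblast-like cells and this cluster were 4.24% and 9.83% of D45 cells and gave 83.4% (Wilson 95% interval 82.0 to 84.7) and 79.9% (78.6 to 81.3) of SLITRK6 UMIs. In all other cells the level was 4.96 and 3.73 CPM on D11, 7.55 and 6.21 on D28, then 4.54 and 6.51 on D45, levels that overlapped between D11 and D45 and between D28 and D45. Among neurons SLITRK6 was at 19.0, 63.4, 52.6 and 56.4 CPM in the dopaminergic neuron-like cluster (the pairs of D28 and then of D45) and at 2.08 to 3.27 CPM in the GABAergic neuron-like cluster, so the lowest of the former lay above the highest of the latter. Of the 8 dopaminergic markers used to name the cluster none is a SLITRK gene.

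SLITRK5 was spread most evenly. Its class means ran from 1.37 CPM in fibroblast-like to 14.2 in oligodendrocyte lineage-like cells, and in GABAergic neuron-like (8.59 to 12.5 CPM), dopaminergic neuron-like (7.22 to 14.8) and astrocyte-like cells (4.01 to 12.9) the ranges over libraries overlapped.

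Over 43 sums of a library and a class, levels of SLITRK1, SLITRK3, SLITRK4 and SLITRK5 went together (Pearson r from 0.66 to 0.89), while r between SLITRK2 or SLITRK6 and any other member was at most 0.36. The sums share libraries and cell classes, so these values are a description. Among 11767 genes, those most like SLITRK1 were TRIM67 (r = 0.94), TMEM181 (0.94) and TMEM130 (0.94), and those most like SLITRK3 were IGSF21 (0.91), NEXMIF (0.91) and NGLY1 (0.91). SLITRK4 was followed most closely by SCAMP1 (0.93), SLC7A14 (0.93) and PNMA2 (0.93), and SLITRK5 by CYFIP2 (0.87), CLCN4 (0.85) and DPP6 (0.84). For SLITRK6 they were TNMD (0.81), ADAMTS5 (0.79) and ROR1 (0.78), of which TNMD is a gene of tendon, and SLITRK2 had no partner above 0.67 (NCALD 0.67, ANKRD39 0.67, CLGN 0.66).

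The partners of the family were followed in the same tests. The shares of all genes to read the counts against were, as above, 17.3% higher and 17.4% lower in whole organoids, and 29.6% higher and 27.8% lower in LMX1A cells. Values between the gates below are averages over the 3 days unless a day is named. Of the 3 LAR-group receptors, none changed between D11 and D45 in whole organoids by edgeR (1 with an unadjusted p under 0.05, PTPRD, 0.77, adjusted p = 0.0514). Averaged over days, PTPRS was lower in LMX1A than in STMN2 cells by a log2 difference of -0.92 (SE 0.05, adjusted p = 3.70e-07), while PTPRD and PTPRF were not called. By day, 1 receptor was higher and 1 lower on D11, and 2 were lower on D28 and on D45. The shares of all genes called in either direction were 49.9%, 46.5% and 36.3% on these days. Of the 4 liprin-alpha scaffolds that bind these receptors, PPFIA2 (2.69) and PPFIA4 (1.45) rose in whole organoids to D45, and PPFIA2 was 1 of 2 that were lower in LMX1A cells (-3.83, SE 0.11). Of 9 other ligands of the same receptors, NTRK3 (5.10, SE 0.25), LRFN3 (1.32) and LRFN5 (1.53) rose in whole organoids and 6 were not called. Between the gates 6 of the 9 were lower in LMX1A cells, LRFN5 with -2.86 (SE 0.09), and IL1RAP (2.08) and IL1RAPL1 (1.25) were higher, as SLITRK2 was.

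Of 9 other leucine-rich repeat adhesion genes, 4 rose to D45 in whole organoids, LRRTM2 most (3.19, SE 0.35, adjusted p = 0.00101), with LRRTM4, LRRC4 and LRRC4C, and 2 fell (LRRTM1, -1.89, and FLRT3, -1.50). Between the gates 5 were lower in LMX1A cells, LRRTM4 with -3.86 (SE 0.17), and FLRT3 (1.27) and LRRTM3 (0.82) were higher. NTRK2, the BDNF receptor that SLITRK5 works with, rose by 4.45 on the log2 scale (SE 0.29, adjusted p = 2.63e-04) and was higher in LMX1A cells (0.64). The SLIT ligands, whose repeats gave the family its name, fell in whole organoids (SLIT1 -0.99, SLIT2 -2.62, SLIT3 -1.58), and so did the receptor ROBO3 (-1.30), while ROBO2 rose (0.69). Of the 6 SLIT and ROBO genes, SLIT1 and SLIT2 were higher in LMX1A cells averaged over days, and the other 4, among them ROBO1 (-2.40) and ROBO2 (-2.65), were lower. On D11 2 of the 6 were higher and 4 lower (median log2 difference -2.42). On D45 1 was higher, 1 lower and 4 not called (median -0.04). In whole organoids between D11 and D45 the median log2 fold change was 0.02 for the LAR-group receptors, 0.88 for the scaffolds, 0.15 for the other ligands, 0.43 for the leucine-rich repeat genes and -1.15 for the SLIT and ROBO genes, where that of all genes was -0.01. Between the gates the medians in the same order were 0.02, -0.16, -0.90, -0.64 and -1.05, where that of all genes was 0.01.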

How the data were processed

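Single cells of porcine midbrain-like organoids on D11, D28 and D45 (2 libraries per day) were profiled with droplet libraries of the 10x Genomics GEM-X kit (3' ends, v4). The authors mapped their reads on Sscrofa11.1 with Cell Ranger 8.0.1 and deposited UMI counts per gene and cell barcode, unnormalized. The annotation release is not given in the sources used here. Columns of no other samples were present.

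Cells with 200 to 7000 genes and at most 10% of UMIs from 37 mitochondrial genes were kept, and doublets were removed only in an alternative. SOX2, which the planned gates used, carries no symbol in the files, so the listed gate without it became the main gate. Counts were summed per library and gate (at least 20 cells) and tested with edgeR 4.0.16 (TMM, its default filter on low counts, quasi-likelihood test, Benjamini-Hochberg over all genes, 0.05) in R 4.3.3. Whole organoids and days within a gate were fitted over 6 sums, gates over 12 with the library as a term. Standard errors are the log2 fold change over the root of the test's F. An exact permutation test over 2 and 2 libraries cannot pass the threshold, so the tests borrow spread from other genes and days. On simulated data with 200 changed genes, 95% of 4-fold and 21% of 2-fold changes were found for whole organoids on D45 against D11 (21714 genes). For LMX1A against STMN2 cells on D45 these were 78% and 10% (18828 genes). The simulation gave every gene a dispersion of 0.05, which was not set against that of the data. These shares are therefore not the power of the tests above.

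Clustering used scanpy 1.11.5 (2000 variable genes, 30 principal components, 20 neighbours, Leiden resolution 0.8). A class needed 3 of its markers in at least 10% of cells at 1.5-fold (5 CPM added), with limits and tie rules set after seeing the data. A floor plate-like cluster has SLITRK2 among its 10 leading genes. Likeness is Pearson's r over log2 CPM with 1 added, in sums of at least 50 cells. In the tests on thinned cells, gates were set after thinning to 2000 UMIs, whereas thinned shares of cells with a UMI used the gates set before thinning. Both left out cells with fewer than 2000 UMIs, which kept 13042 of 14707 cells in D11 library A and 10448 of 20094 in D45 library A. Where a class has a UMI in 0 of its cells, 3 counts set the upper limit.

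The members and lists were chosen with earlier results of these data known. The genes named are the members, their partner lists by role, the gate genes and the 3 genes most like each member, and some genes are not reported here. The alternatives were DESeq2 1.42.0, its size factors, no filter on low counts or on cells, doublets removed, each library left out, other gates, thinning and the replicate letter as a block. The letters A and B did not pair the libraries (correlations of A minus B between days -0.32, 0.05 and -0.20).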

Additional observations from a re-analysis of the deposited data

Results flagged for a closer look

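For 5 members the difference between LMX1A and STMN2 cells on D45 departed from that on D11 by the interaction test itself (edgeR, adjusted p under 0.05). The change in the log2 difference was 4.18 for SLITRK1, 2.504 for SLITRK3 and 0.99 for SLITRK5, each toward LMX1A cells, and -0.88 for SLITRK2 and -2.54 for SLITRK6, each toward STMN2 cells. The LMX1A cells were mostly in floor plate-like clusters on D11 and mostly in astrocyte-like and neuronal clusters on D45. With both gates restricted to matching clusters 2 of the 5, SLITRK1 and SLITRK6, passed. That setting kept LMX1A cells of unnamed clusters, 97 and 131 on D45 against 16 and 17 in floor plate-like clusters, so the type of most of its D45 cells is not known. No group had the 4 libraries needed to look for a library far from the others.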

How the results depend on the processing

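Of the 57 member results called, 30 kept their direction and their call under every alternative tried for them, and of 956 alternative values 870 kept both, 85 lost the call with the same direction and 1 turned. A further 19 member results were called under no setting and are not counted. The turned value was SLITRK6 in LMX1A cells on D45 against D28, -0.69 when LMX1A cells had to hold a SOX3, SOX9 or HES5 UMI. Under that setting 2 members were called in that comparison, and SLITRK6 on D45 against D11, 0.54 and not called, was called lower (-1.50, adjusted p = 0.00784), and it was -0.68 without a call with at least 2 LMX1A UMIs. SLITRK6 in LMX1A against STMN2 cells on D45, not called, turned to 0.34 in thinned cells, 0.25 with at least 10 STMN2 UMIs, 0.13 without LMX1A in STMN2 cells and 0.90 in matching clusters, and ran from -0.42 to 0.36 with a library left out. SLITRK5 in LMX1A cells on D28 against D11, not called, was 0.31 in thinned cells. The shares of all genes given above are those of the main edgeR fit, and none is given here for DESeq2 or the other alternatives. DESeq2 called 3 members in whole organoids on D45 against D28 and 2 in the comparison by LMX1A within STMN2 cells. The latter count was 1 without the filter on low counts, 2 in thinned cells, 2 with at least 10 STMN2 UMIs, 1 with at least 2 LMX1A UMIs, 1 without SOX3, SOX9 or HES5 in STMN2 cells, and 2 in matching clusters. Thinning left 3 calls in the interaction, and in LMX1A cells 1 on D28 against D11, 1 on D45 against D28 and 2 on D45 against D11. Within LMX1A cells SLITRK1, SLITRK4 and SLITRK6 were tested under 15 of the 16 alternatives. A count of calls there can thus be lower because a member was not tested. With at least 2 LMX1A UMIs 2 calls were left in LMX1A cells on D45 against D28. In matching clusters 2 calls were left in the interaction and 3 in LMX1A cells on D45 against D11. With a library left out, member calls ranged from 2 to 5 in whole organoids on D28 against D11 and 0 to 4 on D45 against D28, from 3 to 5 in the interaction, from 0 to 4 in LMX1A cells on D45 against D28 and 3 to 6 on D45 against D11, from 1 to 4, 0 to 2 and 1 to 5 in STMN2 cells (D28 against D11, D45 against D28, D45 against D11), and from 0 to 1 by LMX1A within STMN2 cells. The cause of these shifts was not tested, except that a left-out library leaves fewer samples, and thinning fewer cells and UMIs.

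The replicate letter as a block, which the libraries do not bear out as a pairing, left 2 calls in LMX1A cells on D45 against D28, and without the library term in the comparisons of gates (no replicate block) 3 calls were left in the interaction. The block also ended the calls of SLITRK5 in whole organoids on D45 against D11 (0.91, adjusted p = 0.0799) and of SLITRK2 in STMN2 cells on D45 against D11 (-0.93, adjusted p = 0.0721). Gates with SOX2 were not run, since that symbol is not used here. The settings with SOX3, SOX9 or HES5 and those in matching clusters were chosen after seeing the data. Members at a few UMIs, such as SLITRK1 in LMX1A cells on D11, carry wide counting error.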

Other observations

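SLITRK1, SLITRK3 and SLITRK4 stood at different levels in the neuronal clusters of D11. A neuron-like cluster led by SIM1, ACTC1 and TAC3 held SLITRK1 at 13.5 and 19.2 CPM in D11 libraries A and B, SLITRK3 at 12.9 and 26.2, and SLITRK4 at 6.43 and 11.09. A cluster with SLC5A7, a choline transporter, and NEFL among its leading genes held SLITRK1 at 5.50 and 5.46 CPM, SLITRK3 at 3.09 and 3.30, and SLITRK4 at 3.92 and 5.04. The libraries of these clusters did not overlap for the 3 genes. SLITRK6 was under 2 CPM in both, with 6 and 7 UMIs in the first and 5 and 3 in the second. These are levels of cells grouped by their expression, with no test.

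The gates have cells close to their limits. On D45, 2989 of 6802 and 2231 of 5912 STMN2 cells had 3 to 5 STMN2 UMIs, against 252 of 1560 and 504 of 2147 on D11. Of the LMX1A cells, 267 of 418 and 530 of 903 on D45 had just 1 LMX1A UMI, against 1092 of 3157 and 1922 of 4638 on D11.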
